A study of Homo sapiens with 4 samples.

Results

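The genes described are 9 regulators of pluripotency in human embryonic stem cells: SALL4, ZFP42, FOXO1, FOXD3, ZIC2, VRTN, L1TD1, LIN28B and USP44. Their m6A regions were taken from 9900 deposited regions by 3 links. A region belonged to a gene when its annotated transcript was that gene's, when the gene was the one named for the nearest start site, or when the region overlapped the gene body on hg38. These links gave 16 regions for 8 of the 9 genes. ZIC2 had none, so the description of these genes as having linked m6A regions held for 8 of them. A link rests on annotation or position and does not by itself show m6A on that gene's RNA. The genes were chosen by the m6A regions linked to them in this same set, so their counts are given as a description and support nothing further. Among all 20056 protein-coding genes, 36.0% had a region by at least 1 of the 3 links.

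N6-methyladenosine (m6A) was measured in wild-type H1, an established human embryonic stem cell line, by sequencing RNA recovered with an m6A antibody. There were 2 input libraries and 2 pull-down libraries, all from total RNA and without further treatment named in the labels. H1 is a single line, and the labels did not say whether replicates came from separate cultures. The deposited regions form 1 intersected set of MACS2 peaks, with no height and no value per library, so no replicate error could be set beside a value, depth was unknown, and the lack of a region does not show the lack of m6A. RNA levels were not in these files, so neither the primed state of the cells nor the expression of any gene could be checked against its markers.

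m6A is placed on adenosines of newly made RNA by the METTL3 and METTL14 methyltransferase complex. It is commonly found in long internal exons and around stop codons, and it is read by YTH and IGF2BP proteins that alter the decay, translation or stability of the transcript. In pluripotent cells, m6A on the transcripts of pluripotency factors is known for its part in how quickly these are cleared when cells change state. The primed state of conventional human embryonic stem cells resembles the epiblast after implantation, whereas the naive state resembles the epiblast before it.

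The m6A regions of 6 genes were centred in coding exons. These genes were SALL4, ZFP42, FOXO1, VRTN, L1TD1 and USP44, with 8 such regions between them. Of all protein-coding genes, 12.8% held a region centred in an exon. With regions up to 2 kb alone, 5 of the 9 genes held one, against 10.4% of protein-coding genes, and FOXO1 was the gene lost. With transcript ends and promoters counted too, 6 did, against 14.4%. The other regions were 6 with a centre in an intron, 1 at a promoter and 1 that the annotation called intergenic. FOXD3 and LIN28B had regions over the gene body and none whose centre the annotation placed in one of their own exons. They differed in kind. The FOXD3 region lay wholly inside that gene, and its centre was labelled as the promoter of the antisense gene FOXD3-AS1. For FOXD3 the missing exon label is therefore a matter of annotation and does not place the region outside its exons.

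**Figure D1:**
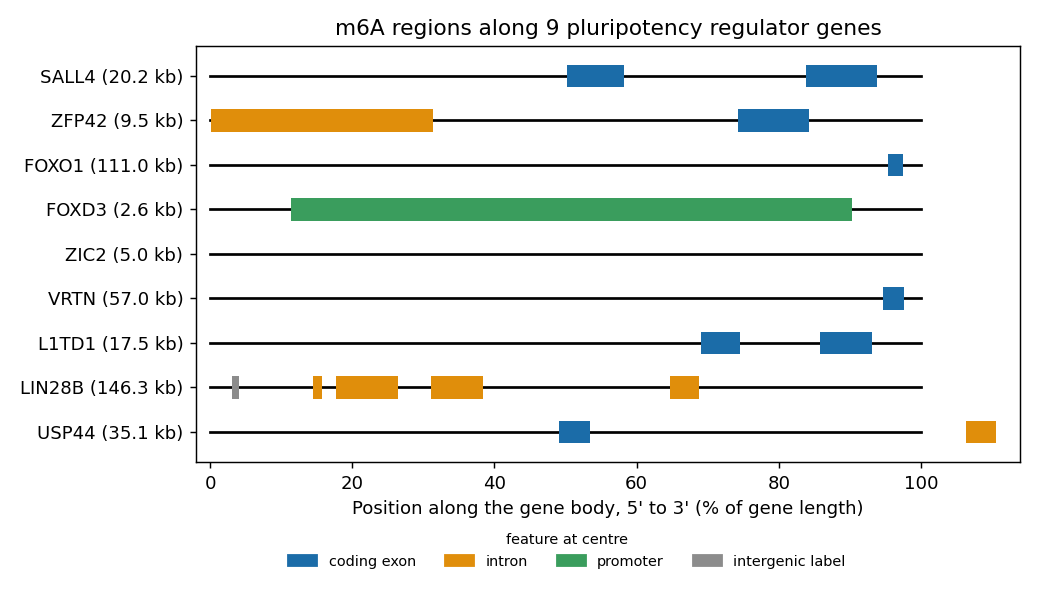
Position of each m6A region along the 9 genes, drawn from the 5' to the 3' boundary of the gene body as a percent of its length (horizontal axis). Black lines are gene bodies, boxes are regions, and colours give the annotated feature at the region's centre. The 8 coding-exon regions all have their centre in the 3' part of the gene, ZIC2 has no region, and the second USP44 region lies beyond the 3' boundary.

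Among the transcription factors, SALL4 carried 2 exonic regions. SALL4 is a spalt-family zinc finger protein that maintains self-renewal and recruits the NuRD deacetylase complex. Its gene lies on the minus strand at chr20:51782331-51802521. The first region, of 1607 bp at chr20:51790766-51792372, was centred in exon 2 of 4, an exon that is large and codes for zinc fingers. The second, of 2020 bp at chr20:51783581-51785600, was centred in exon 4 of 4 and ended 1250 bp before the 3' boundary. A gap of 5165 bp separated them. Together they covered 18.0% of the gene body. The second region was named for ATP9A, whose start site was nearest, so a search by gene name alone finds 1 SALL4 region.

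ZFP42 encodes REX1, a zinc finger protein related to YY1 that is widely used as a marker of undifferentiated cells. In mouse it marks the naive state, whereas in human it is expressed in conventional embryonic stem cells as well. Its gene at chr4:187995771-188005246 held 2 regions of different kinds. A region of 946 bp at chr4:188002802-188003747, the narrowest of the 16, was centred in exon 3 of 3, the exon that holds the coding sequence. The other, of 2962 bp at chr4:187995783-187998744, was centred in intron 1 of 2, at an AluSx3 element. It began 12 bp downstream of the annotated ZFP42 start site, so its first bases are the first exon. The 2 regions covered 41.2% of the gene.

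The stretch across the ZFP42 start is shown because, of the promoter windows available for these genes, it is the only one that an m6A region enters. No window was available for SALL4 and USP44. The printed stretch runs from 250 bases before the start site to 30 bases into the transcript (chr4:187995521-187995800, plus strand, RefSeq, GRCh38.p14). The capitals are the 18 printed bases inside the m6A region.
ZFP42 start: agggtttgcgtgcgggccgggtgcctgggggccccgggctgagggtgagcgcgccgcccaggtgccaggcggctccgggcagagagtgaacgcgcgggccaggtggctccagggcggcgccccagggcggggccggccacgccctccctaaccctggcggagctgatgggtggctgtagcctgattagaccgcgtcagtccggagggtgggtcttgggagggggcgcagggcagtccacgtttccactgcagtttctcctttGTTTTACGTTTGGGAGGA
The letters GGACT, the most common form of the m6A consensus, were searched on both strands of the full window of 300 bases. They occurred 0 times on the plus strand, the one printed, which reads as the ZFP42 RNA does. On the opposite strand they occurred 2 times, both before the start site. Of 35116 windows of this length at gene starts, 44.2% held GGACT on either strand. Most of the window lies before the start site, so this search does not describe the m6A region. The rest of that region's sequence was not analysed here, nor was that of the other member regions.

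FOXO1 is a forkhead factor held outside the nucleus by insulin and AKT signalling, and it supports expression of core pluripotency genes in human embryonic stem cells. Its gene spans 110975 bp on the minus strand (chr13:40555667-40666641), and it held a single region of 2378 bp at chr13:40558501-40560878, in exon 2 of 3. That was the widest of the 8 coding-exon regions, wider than or equal to 86.0% of all coding-exon regions. It covered 2.14% of the gene and lay 105763 bp from the 5' boundary and 2834 bp from the 3' boundary. The annotation named it for LINC00598, a non-coding gene, with the region's centre at -78683 bp from (upstream of) its start site. FOXO1 is therefore missed when genes are taken by the nearest start site.

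FOXD3, a forkhead factor of pluripotent cells and of the neural crest, is encoded by a short gene of 2562 bp (chr1:63322567-63325128). A region of 2021 bp at chr1:63322860-63324880 lay wholly inside it and covered 78.9% of its length. Its centre was annotated as the promoter of FOXD3-AS1, an antisense non-coding gene at chr1:63320884-63324441. Of the 2021 bp, 1582 bp lie in both genes. The deposited strand was the same for every region, so RNA of FOXD3 and of FOXD3-AS1 cannot be told apart there. Because the centre was annotated to the FOXD3-AS1 promoter and not to an exon of FOXD3, FOXD3 did not count as a gene with an exonic region. Among 2541 protein-coding genes from 0.5 to 2 times as long as FOXD3, 17.2% had any region over the gene body.

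ZIC2, a zinc finger factor of the primed state and of forebrain development, had no region in its gene of 4982 bp (chr13:99981784-99986765). The nearest region lay 10665 bp away at chr13:99965002-99971118. It was 6117 bp wide, fell wholly inside ZIC5, the neighbouring gene of the same family, and was centred in the single ZIC5 intron at a CpG island. On the other side of ZIC2 the nearest region was 339001 bp away, in an intron of PCCA. Among 4076 protein-coding genes from 0.5 to 2 times as long as ZIC2, 18.2% had a region over the gene body.

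VRTN (vertnin), a nuclear protein best known for its effect on vertebral number in pigs, held 1 region. It measured 1747 bp at chr14:74356931-74358677 and was centred in exon 2 of 2 of the gene (chr14:74302993-74360008, plus strand). Its 3' edge was 1331 bp from the 3' boundary. The VRTN gene body of 57016 bp includes a model with a distant upstream start, and the region covered 3.06% of it. The region began 8460 bp from the start site in the promoter table.

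Of the RNA-binding proteins, L1TD1 and LIN28B had opposite layouts. L1TD1, a protein derived from the first open reading frame of a LINE-1 element and abundant in human pluripotent cells, held 2 narrow exonic regions. In its gene at chr1:62194849-62212328, the first, of 949 bp at chr1:62206931-62207879, was centred in exon 4 of 5. The second, of 1280 bp at chr1:62209844-62211123, was centred in exon 5 of 5. The gap between them was 1964 bp, the shortest between regions of any of the 9 genes. The second L1TD1 region ended 1205 bp before the 3' boundary of the gene.

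LIN28B, which binds let-7 precursors and blocks their maturation, held 5 regions in a gene body of 146307 bp (chr6:104937026-105083332). In 5' to 3' order the first measured 1505 bp and lay at chr6:104941474-104942978. The annotation called it intergenic, but it lies inside the RefSeq gene body, 509 bp downstream of a LIN28B start site in the promoter table. The second, of 1847 bp at chr6:104958144-104959990, was centred in intron 2 of 3, 1960 bp downstream of the start site the annotation used. The third measured 12688 bp (chr6:104962949-104975636) and the fourth 10772 bp (chr6:104982504-104993275), both centred in the same intron, the fourth at an AluSx1 element. The fifth, of 5947 bp at chr6:105031742-105037688, was centred in intron 3 of 3. The last 45644 bp of the gene, which include the long 3' untranslated region with its let-7 sites, held no region.

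LIN28B differed from the other genes in number and width of regions. Its 3 regions over 5 kb were the only ones of that width among the 16. Its 5 regions covered 32759 bp, or 22.4% of the gene body. Of 3178 protein-coding genes with an intronic region, 137 (4.31%) had at least 4, as LIN28B did, and 38 (1.20%) had at least 3 over 5 kb. Among 1957 protein-coding genes of 100 to 200 kb, 49.1% had a region over the gene body, 47 (2.40%) had at least 5, and 92 (4.70%) were covered over at least as large a share as LIN28B. Many regions in a long intron of 1 gene share a transcript and are not independent of one another.

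The let-7 microRNAs that LIN28B controls were looked up for regions of their own. The table of RefSeq microRNAs listed 11 let-7 hairpins, and 0 of them overlapped an m6A region. The share over all microRNA hairpins is not given here, so this count is no trait of let-7. A pair of mature let-7 sequences (RefSeq, GRCh38.p14) shows the seed, bases 2 to 8, in capitals, the part that pairs with target mRNAs such as LIN28B's own.
hsa-let-7a-5p: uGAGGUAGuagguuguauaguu
hsa-let-7g-5p: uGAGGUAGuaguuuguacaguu
All 8 distinct let-7 5p sequences in the table have this seed.

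USP44, a ubiquitin protease that acts on histone H2B and in the mitotic spindle checkpoint and is lost as stem cells differentiate, had 2 linked regions. The first measured 1539 bp at chr12:95532917-95534455 and was centred in exon 2 of 6 of the gene (chr12:95516560-95551681, minus strand). It lay 17226 bp from the 5' boundary and 16357 bp from the 3' boundary, near the middle of the gene body. The second, of 1454 bp at chr12:95512867-95514320, was tied to USP44 only by the name of the nearest start site. It did not overlap USP44 and was centred in intron 10 of 10 of METAP2, which encodes a methionine aminopeptidase. That region is described here because the rule takes it, and it is no measurement on USP44 RNA.

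The coding-exon regions lay between the middle and the 3' end of their genes. All 8 centres lay past 50% of the gene body counted from the 5' boundary, from 51.2% in USP44 to 96.4% in FOXO1. The first SALL4 region, at 54.2%, was also near the middle. These positions use the longest gene model, and that of VRTN includes the distant upstream start. Over all 2632 exonic regions of protein-coding genes with a known strand, the median was 81.7% (quartiles 48.9 and 94.7%), and 74.5% lay past 50%. That set also holds regions centred in untranslated and non-coding exons, whereas the 8 here are all in coding exons. By exon number, 4 of the 8 were in the last exon (SALL4, L1TD1, ZFP42 and VRTN, 1 each) and 4 in an earlier one (SALL4, L1TD1, USP44 and FOXO1). Across the series, 1761 coding-exon regions had a transcript with at least 2 exons, and 57.2% of them were centred in the last exon and 6.02% in the first. None of the 8 member regions was in a first exon. The share of last exons among the members is near that of the whole series.

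The last-exon regions of the 4 genes ended between 1205 and 1499 bp before the 3' boundary. The distances were 1205 bp in L1TD1, 1250 bp in SALL4, 1331 bp in VRTN and 1499 bp in ZFP42. Across 921 last-exon regions of protein-coding genes the median was 2122 bp (quartiles 750 and 4486 bp). L1TD1 stood at the 35.0th percentile of that distribution and ZFP42 at the 40.9th. The boundary is that of the longest gene model, so the distance is not that to a stop codon or to the poly(A) site in use.

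**Figure D2:**
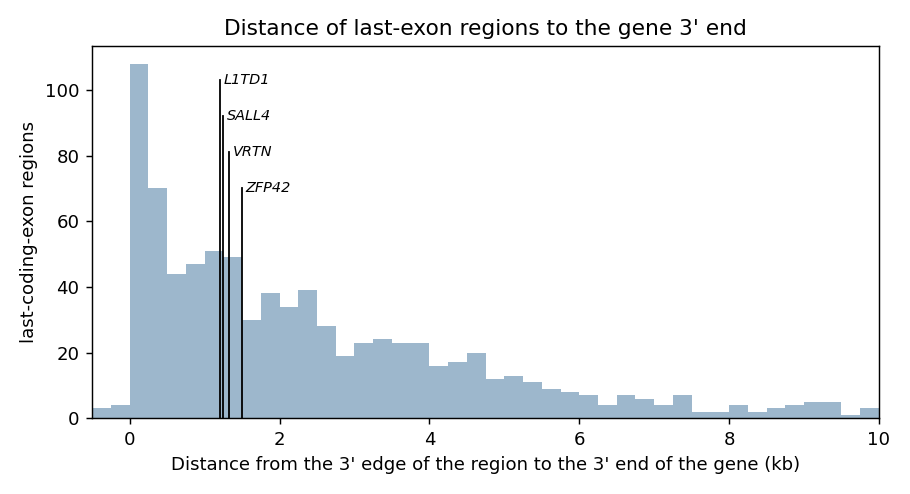
Number of last-coding-exon regions of all protein-coding genes (bars of 250 bp) by the distance in kb from the 3' edge of the region to the 3' boundary of the gene, with lines for 4 of the described genes. The 92 regions beyond the ends of the axis are not drawn. The 4 lines lie between 1205 and 1499 bp, inside the main body of the distribution.

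The exonic regions were of ordinary width. Their median was 1573 bp (range 946 to 2378 bp), against 1350 bp (quartiles 1029 and 1936 bp) for all 1913 coding-exon regions. The 2 narrowest, in ZFP42 and L1TD1, stood at the 17.5th and 18.0th percentile of coding-exon regions, and FOXO1 at the 86.0th. Over all 16 regions the median was 1797 bp, and 9 were at most 2 kb wide. The intronic regions ranged from 1454 bp in the METAP2 region to 12688 bp in LIN28B, where the series' 4967 intronic regions had a median of 2102 bp (quartiles 1193 and 5526 bp). The FOXD3 region, at 2021 bp, was wider than or equal to 81.5% of promoter regions.

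**Figure D3:**
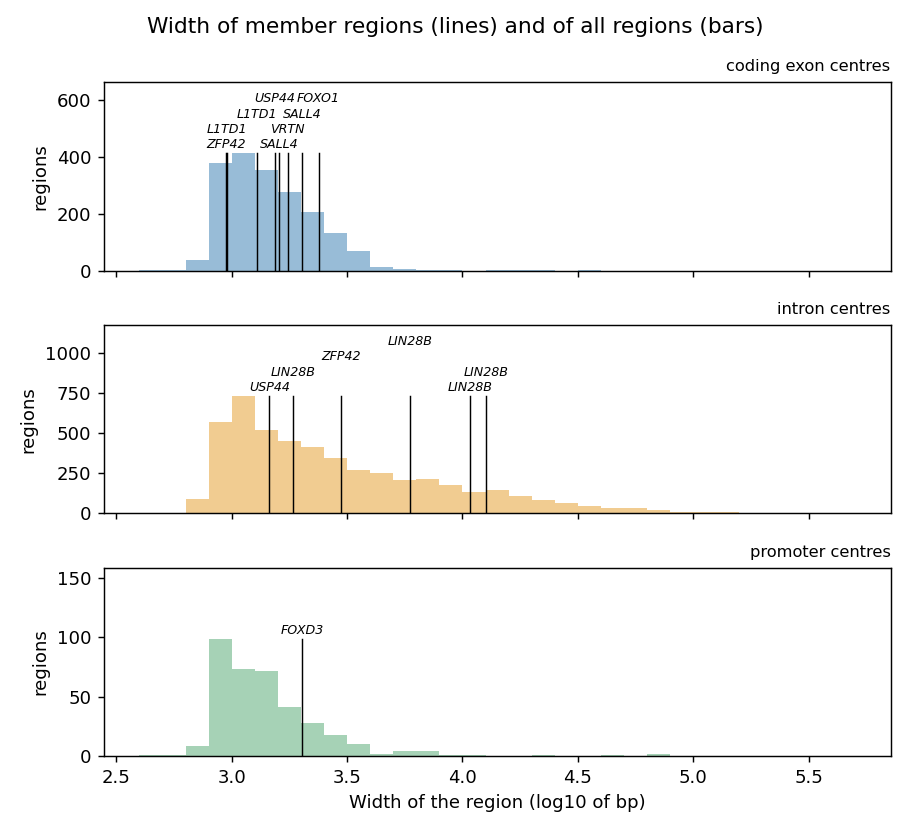
Width of m6A regions on a log10 scale of bp (horizontal axis) for coding-exon, intron and promoter centres. Bars count all regions of the series and black lines are regions of the described genes, named above them. The coding-exon lines lie between 946 and 2378 bp, and the 3 widest intronic lines are all from LIN28B.

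The 3 links did not find the same genes. The annotated transcript tied 13 regions to 7 genes, the nearest start site tied 12 to 6 genes, and overlap of the gene body tied 15 to 8 genes. Over all protein-coding genes, the nearest start site named 25.7% and overlap found 30.2%. There were 11 regions found by all 3 links. Regions in SALL4, FOXO1, FOXD3 and LIN28B, 1 each, lay on the gene but carried another gene's name. For the series as a whole, 41.4% of 2841 exonic regions in protein-coding genes were named for a gene other than their host.

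Of 20 relatives of the described genes reported here, 3 held an exonic region and 8 any region over the gene body, against 12.8% and 30.2% of all protein-coding genes. Among the SALL family, SALL3 held a region of 4585 bp in exon 3 of 3 and one of 1316 bp in intron 1 of 2, and SALL1 and SALL2 held none. Of the ZIC genes reported here, ZIC5 had only the 6117 bp region described above, whose centre was in its intron, and ZIC1 and ZIC4 had none. FOXD1, FOXD2 and FOXD4 had none. FOXO3 had a region of 16232 bp in intron 3 of 3 and FOXO6 held 2 in intron 1 of 2 (1201 and 1521 bp), so that FOXO1 was the 1 of 4 FOXO genes with an exonic region.

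LIN28A, the paralog of LIN28B, had no region. Of the proteases related to USP44 or also acting on H2B, USP51 held a region of 1807 bp in exon 2 of 2 and USP27X one of 1770 bp in its only exon. USP49, the closest relative of USP44, had 1 intronic region of 3376 bp, and USP3 and USP22 had none. YY1, the relative of ZFP42, had 2 regions, 1 of 9888 bp in intron 1 of 4 and 1 of 1457 bp annotated to the promoter of MIR6764, and YY2 had none. Where 1 family member held an exonic region and another did not, RNA levels were not known, and the difference was not tested.

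Other genes of pluripotency are described without the 9 genes, beside the 12.8% of all protein-coding genes with an exonic region. The lists were chosen with earlier results of these data known. The intervals for them therefore cover counting error only, and no difference from all protein-coding genes was tested. Of 19 further genes of the primed state, 7 held an exonic region (36.8%, 95% exact binomial interval 16.3 to 61.6%). They were OTX2, the homeobox factor, DUSP6, a phosphatase that limits ERK signalling, CD24, a surface marker, SOX11, FZD7, PTPRZ1 and MYCN. The OTX2 and CD24 regions were annotated to exons of non-coding transcripts of these genes. DNMT3B, THY1, SALL2 and CDH2 had none. With regions up to 2 kb alone and the described genes included, the count fell from 10 to 7 of 25 genes, and the difference from all protein-coding genes from 27.2 to 17.6 percentage points. Both differences count described genes, which were chosen for their regions, so their size is partly set by that choice. Of 20 further core pluripotency genes, 6 held one (interval 11.9 to 54.3%): SOX2, GDF3, LEFTY1, TRIM71, JARID2 and ZNF398. LEFTY1 has a near-identical neighbour, LEFTY2, so its reads may be shared. POU5F1, LIN28A, PRDM14 and DPPA4 had none. NANOG met only a region of 100260 bp centred in SLC2A14.

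Of 20 genes of the naive state, 2 held an exonic region (10.0%, 1.23 to 31.7%), the growth factor FGF4, with 1655 bp in the 3' untranslated region, and the homeobox gene GBX2, with 1335 bp in exon 2 of 2. KLF2, KLF4, KLF5 and KLF17 had none. Any region over the gene body was found for 11 of the 19 primed genes, 9 of the 20 core genes and 2 of the 20 naive genes, against 30.2% of protein-coding genes. Whether the naive genes were transcribed in these cells was not tested.

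The pathways in which single members act were mixed. In the list drawn up for the LIN28 and let-7 pathway, 6 of 19 further genes held an exonic region (31.6%, 12.6 to 56.6%). They were the microprocessor subunit DGCR8, the uridylyltransferase TUT7, the exonuclease DIS3L2, TRIM71, ZCCHC3 and the Argonaute protein AGO2. ZCCHC3 was counted because it was listed, and its place in this pathway was not checked. In 4 of the 6 genes the exonic region was in the last exon of a transcript with several exons. These were DGCR8, DIS3L2 and AGO2 in the 3' untranslated region and TRIM71 in exon 4 of 4. For coding-exon regions alone the share of the series was 57.2%. A share that takes in untranslated regions is not given here, so this count is a description only. TUT4, which like TUT7 adds uridine to let-7 precursors bound by LIN28, had 2 intronic regions, as did DICER1. DROSHA, IGF2BP1, IGF2BP2 and MYC had none.

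In the insulin, AKT and FOXO pathway, 5 of 18 further genes held an exonic region (27.8%, 9.69 to 53.5%). All were receptors, adaptors or the regulatory subunit upstream of AKT, namely INSR, IGF1R, IRS1, IRS2 and PIK3R1. IGF1R held 2 regions in the 3' untranslated region, in exon 21 of 21, and IRS2 held 1 of 5953 bp in exon 1 of 2 and 1 of 839 bp in the 3' untranslated region. FOXO4, AKT1, AKT2 and PIK3CA had no region. With regions up to 2 kb alone and FOXO1 included, the count fell from 6 to 3 of 19 genes, and the difference from all protein-coding genes went from 18.8 to 5.38 percentage points. FOXO1, which was chosen for its region, is among the 6. Of the NuRD complex that SALL4 recruits, 2 of 15 genes, RBBP7 and GATAD2A, held an exonic region (13.3%, 1.66 to 40.5%), and CHD3, CHD5, HDAC1 and HDAC2 had none. Of 16 further genes of H2B ubiquitination, 3 held one, USP27X, USP51 and ATXN7 (18.8%, 4.05 to 45.6%), and RNF40, UBE2A, UBE2B and USP22 had none. When only genes with a region over the gene body were compared, with the 9 genes included, the difference from all such protein-coding genes changed sign for the NuRD list (0.524 to -9.06 percentage points), the H2B list (10.7 to -2.40) and the naive list (-2.81 to 57.6, on 2 genes).

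**Figure D4:**
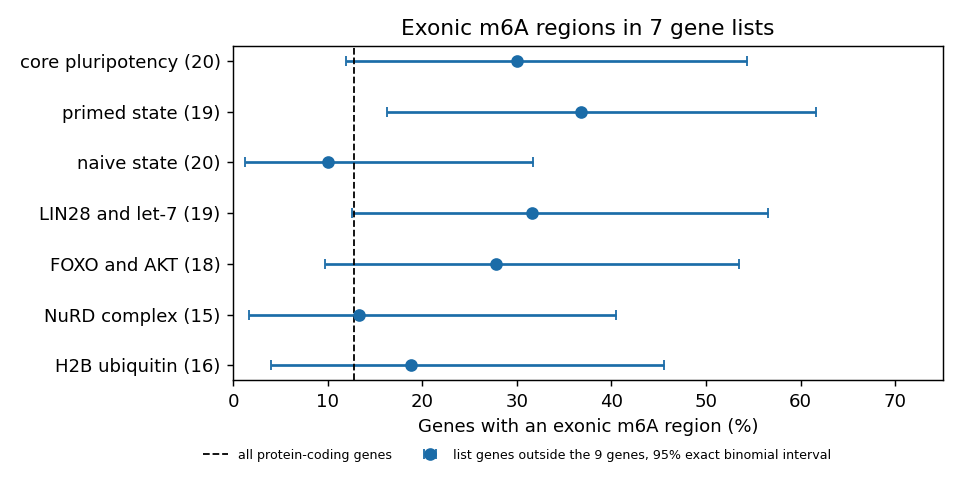
Percent of genes with an exonic m6A region (horizontal axis) in 7 gene lists without the 9 described genes, with the number of genes in brackets. Points are the shares, bars are 95% exact binomial intervals for counting error only, and the dashed line is the 12.8% of all protein-coding genes. The lists were chosen with earlier results of these data known, so the bars are no test against that line. The primed list is at 36.8% and the naive list at 10.0%.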

How the data were processed

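m6A pull-down and input RNA of H1 cells were sequenced as 4 libraries. Per the submitters' processing notes, HISAT2 2.2.1 and MACS2 2.2.7.1 were among the tools, and bedtools 2.30.0, SAMtools 1.6, HOMER and Trim Galore 0.6.7 are also named, on hg38. Their settings, and which peaks were intersected, are not given in the sources used here. Deposited by the authors were 9900 positions in base pairs and HOMER's annotation of them, including the distance of each centre to the nearest start site. The deposited peak score was 0 in every line and was not used.

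Transcripts were matched to genes through a RefSeq table of GRCh38.p14 (8523 of 8585 regions with a transcript, 99.3%), and all 143 listed symbols were found there, 142 of them as protein-coding genes. Exonic means that the annotation placed the centre in an exon, whether coding, untranslated or of a non-coding transcript. Strand came from the RefSeq promoter table, or from the start site that the deposited distances imply (SALL4, USP44); 16539 protein-coding genes had one. Intervals are exact binomial and cover counting error only. No test was run, since the genes were chosen for their regions and there is 1 region set. Host, overlap, strand and distance calculations were tested on simulated data. Python 3.11.15, pandas 2.3.3 and scipy 1.17.1 were used.

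All 9 genes are named, as are family members with a region and, of each list, genes with an exonic region and up to 4 without a region in list order. The members and lists were chosen with earlier results of these data known, and a few genes of these families and pathways are not reported here and are left out of the counts. NANOG, ZIC5, TUT4, DICER1 and further relatives without a region were named after their values were seen.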

Additional observations from a re-analysis of the deposited data

How the results depend on the processing

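No paired analysis was possible because the deposited set holds no values per library, and for the same reason no replicate could be left out. Of 52 alternatives, 31 stayed within 1.5 times the value given, 18 moved further and 3 changed sign; the 1.5-fold limit for list differences was chosen after the values were seen. Regions up to 2 kb alone left 9 of the 16 linked regions, lowered the SALL family from 2 genes with an exonic region to 1 (SALL3 was lost) and the FOXO family from 1 to 0. It also moved the difference from all protein-coding genes, in percentage points, from 27.2 to 17.6 for the primed list, 18.8 to 5.38 for the FOXO list, 0.524 to 2.93 for the NuRD list and -2.81 to -0.406 for the naive list. Counting any overlap of the gene body raised FOXD, LIN28 and the ZIC genes reported here from 0 to 1 each, FOXO from 1 to 3 and the YY1 and ZFP42 family from 1 to 2, and it moved the naive list to -20.2 points, the NuRD list to 9.80 and the H2B list from 10.7 to 28.6. With transcript ends and promoters counted, the naive list stood at -4.39 and the NuRD list at 5.61. Among genes with a region over the gene body, the naive list turned from -2.81 to 57.6 points (on 2 genes), the NuRD list from 0.524 to -9.06 and the H2B list from 10.7 to -2.40, and the FOXO list moved to 12.1; fewer genes enter there. The lists in these comparisons include the 9 genes. Where a list holds any of them, its difference is partly set by their choice for having regions. The number of members with an exonic region was 5 of 9 with regions up to 2 kb or with exonic regions given to the nearest start site's gene, where FOXO1 was lost, and 6 otherwise. Depth, and so what a missing region means, is unknown.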
